A study of Homo sapiens with 24 samples.

Results

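The forkhead box O transcription factors FOXO1, FOXO3 and FOXO4 and 5 genes described as their targets, KLHL24, CCNG2, SESN3, BCL6 and PIK3IP1, were followed in 2 human renal cell carcinoma lines given dasatinib, which blocks the kinases of the SRC and ABL families. The 8 genes were chosen by name out of 18132 genes on the array, with earlier results of these data known. Each was read from the probe set that names it alone and had the highest mean over the 24 arrays. Caki-1 and 769-P cells had received either the vehicle DMSO or 1 µM dasatinib for 6, 12 or 24 h. Each of the 8 combinations of line and treatment was measured on 3 arrays of total RNA labelled as biological replicates. The DMSO arrays carry no time of their own in the labels, so the comparisons with DMSO share the same 3 control arrays in each line. Without a control of known time, time on the drug and time in culture cannot be told apart. Each line is 1 established cell line, and how separate the 3 cultures of a group were is not given, so p-values measure the spread between these arrays. RNA was taken from whole cultures, so a change in RNA per cell and a change in the share of cells that express a gene cannot be told apart.

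FOXO factors bind DNA through a forkhead domain and turn on genes of cell cycle arrest, stress resistance, autophagy and metabolism. When PI3K is active, AKT phosphorylates the factors, 14-3-3 proteins bind them and they are held in the cytoplasm, so their activity is set largely by location rather than by their RNA level. In growth-factor starved or kinase-inhibited cells the factors move to the nucleus, where several of their targets feed back on PI3K, mTOR and the cell cycle. In clear cell renal carcinoma FOXO factors have been described as tumour suppressors.

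The log2 signals of all probe sets ran from 2.804 to 15.19, array medians lay between 6.01 and 6.08, and arrays of a group correlated at 0.993 to 0.997. The number of arrays sets the precision here. A gene was tested in a line when its mean over the 12 arrays of that line exceeded the 40th percentile of the probe sets, which was a log2 signal of 5.38 for Caki-1 and 5.36 for 769-P. Of the renal epithelial markers with a probe set, 7 of 8 exceeded that level in Caki-1 (EPCAM did not) and 8 of 8 in 769-P. Of the leukocyte markers 5 of 9 did in Caki-1 and 4 of 9 in 769-P, with CD3E, CD79A, NKG7 and CD68 above it in both lines, CD14 in Caki-1 alone, and PTPRC, MS4A1, LYZ and ITGAM below it in both. Of the endothelial markers 3 of 7 did in Caki-1 and 4 of 7 in 769-P, with PECAM1, VWF and ESAM above it in both lines, KDR in 769-P alone, and CDH5, TEK and CLDN5 below it in both. The summed log2 level of the 7 endothelial markers ran from 36.0 to 37.4 in Caki-1 under DMSO and from 38.3 to 40.4 at 24 h, and from 36.3 to 37.5 and from 37.2 to 38.0 in 769-P. The summed level of the 9 leukocyte markers ran from 47.3 to 47.6 and from 47.3 to 47.8 in Caki-1, and from 45.7 to 46.2 and from 46.0 to 46.9 in 769-P. Their part in the results was not tested.

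Because most of the genes moved in the same direction, the DNA at their start sites was read from RefSeq (GRCh38.p14). The canonical FOXO element GTAAACA or its reverse complement TGTTTAC was searched on both strands from 250 bases before to 50 bases after each annotated start. It lay in the windows of FOXO4 and PIK3IP1, 2 of the 13 windows of the 8 genes, against 1202 of all 35116 windows, or 3.42%. The match began 23 bases after the start of FOXO4 and 16 bases after a start of PIK3IP1, and the 30 bases around each are given with the match in capitals.
FOXO4 (chrX:71095863-71095892, plus strand): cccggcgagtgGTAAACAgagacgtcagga
PIK3IP1 (chr22:31292454-31292483, minus strand): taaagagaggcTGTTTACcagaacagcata

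The shorter core TGTTT or AAACA, which lies inside the longer element, was found for 8 of the 8 genes and in 10 of their 13 windows, but it is also in 44.4% of all windows. The 250 bases before the start are given for FOXO1 and KLHL24, which rose most in Caki-1, for CCNG2, which rose early, and for SESN3, whose signal was low throughout. Capitals mark the core, with 2 matches before the start of FOXO1, 4 before KLHL24, 0 before CCNG2 and 2 before SESN3. These matches describe letters only, and binding was not measured.
FOXO1 (chr13:40666642-40666891, minus strand): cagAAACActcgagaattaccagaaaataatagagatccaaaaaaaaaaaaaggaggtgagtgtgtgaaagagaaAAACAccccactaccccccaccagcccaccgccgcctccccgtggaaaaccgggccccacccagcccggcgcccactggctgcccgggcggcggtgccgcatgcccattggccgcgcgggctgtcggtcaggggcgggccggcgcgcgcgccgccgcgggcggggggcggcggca
KLHL24 (chr3:183635373-183635622, plus strand): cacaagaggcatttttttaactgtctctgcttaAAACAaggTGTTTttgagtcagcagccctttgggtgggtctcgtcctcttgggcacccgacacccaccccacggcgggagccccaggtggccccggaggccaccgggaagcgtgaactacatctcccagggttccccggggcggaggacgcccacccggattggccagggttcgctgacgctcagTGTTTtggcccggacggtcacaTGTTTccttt
CCNG2 (chr4:77156957-77157206, plus strand): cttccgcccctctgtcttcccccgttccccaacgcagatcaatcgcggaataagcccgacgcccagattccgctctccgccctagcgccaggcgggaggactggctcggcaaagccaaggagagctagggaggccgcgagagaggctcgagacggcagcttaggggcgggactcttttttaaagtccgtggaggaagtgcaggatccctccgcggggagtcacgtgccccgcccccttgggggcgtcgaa
SESN3 (chr11:95232476-95232725, minus strand): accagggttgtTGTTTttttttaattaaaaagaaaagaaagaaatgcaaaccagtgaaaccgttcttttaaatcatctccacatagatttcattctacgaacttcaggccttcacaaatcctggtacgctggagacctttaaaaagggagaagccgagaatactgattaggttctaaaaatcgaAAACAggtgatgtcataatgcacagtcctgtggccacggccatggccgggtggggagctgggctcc

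FOXO1 RNA rose in both lines at each time, and by far more in Caki-1. FOXO1 (chromosome 13, 40555667 to 40666641, minus strand) encodes the family member best known for control of glucose metabolism and cell cycle exit. In Caki-1 its log2 signals were 8.06, 7.70 and 7.66 under DMSO, 10.54, 10.45 and 10.51 at 6 h, 10.80, 10.83 and 10.82 at 12 h, and 10.93, 10.90 and 10.96 at 24 h. Treated arrays lay more than 2 log2 units above every DMSO array, and treated replicates lay close together. The log2 rise was 2.69 ± 0.09 (SE, n = 3 against 3) at 6 h, 3.003 ± 0.09 at 12 h and 3.12 ± 0.09 at 24 h, or 6.45-, 8.02- and 8.68-fold, with limma adjusted p of 1.51e-10, 3.12e-11 and 7.47e-12. Ordered by log2 rise among 12423 tested genes, FOXO1 ranked 5, 10 and 21.

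In 769-P the FOXO1 log2 signals were 8.87, 8.80 and 8.59 under DMSO, 9.50, 9.32 and 9.34 at 6 h, 9.56, 9.40 and 9.30 at 12 h, and 9.63, 9.67 and 9.69 at 24 h. Treated and DMSO arrays again did not overlap, but the step was smaller. FOXO1 rose by 0.64 ± 0.09 log2 units at 6 h, 0.67 ± 0.09 at 12 h and 0.91 ± 0.09 at 24 h, with limma adjusted p of 5.96e-05, 1.69e-05 and 3.63e-07. By log2 rise FOXO1 ranked 557, 988 and 982 of 12354 genes in this line.

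FOXO3 rose in Caki-1 from 12 h on, and its result in 769-P turned on 1 array and on the probe set. FOXO3 (chromosome 6, 108559825 to 108684774, plus strand) encodes a family member tied to quiescence, apoptosis and stress resistance. In Caki-1 its log2 signals were 9.06, 9.05 and 9.02 under DMSO, 9.19, 9.26 and 9.25 at 6 h, 9.24, 9.60 and 9.68 at 12 h, and 9.79, 9.94 and 9.91 at 24 h. No treated array overlapped the DMSO arrays, but the 6 h arrays were only slightly higher. The log2 change was 0.19 ± 0.10 at 6 h (limma adjusted p 0.169) and the rise was 0.46 ± 0.10 at 12 h (0.000881) and 0.84 ± 0.10 at 24 h (1.86e-06). Without 12 h replicate 1, the 6 h value passed the test at 0.0385.

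In 769-P the FOXO3 log2 signals were 9.23, 8.98 and 9.37 under DMSO, 9.07, 9.03 and 8.87 at 6 h, 9.49, 9.42 and 9.44 at 12 h, and 9.004, 9.76 and 9.82 at 24 h. The groups overlapped at 6 and 24 h, where replicate 1 of the 24 h group lay with the DMSO arrays. The log2 change was -0.20 ± 0.16 at 6 h, 0.26 ± 0.16 at 12 h and 0.33 ± 0.16 at 24 h, with limma adjusted p of 0.403, 0.221 and 0.0987. Without replicate 1 of the 24 h group the 24 h value was 0.60 with an adjusted p of 0.000166, and the 12 h value passed the test at 0.032.

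A further 5 probe sets name FOXO3 together with FOXO3B, a near-identical sequence elsewhere in the genome, so they cannot be assigned to FOXO3 alone. The brightest of these gave 10.17, 9.98 and 10.06 in 769-P under DMSO and 10.90, 10.77 and 10.86 at 24 h, and here replicate 1 was the highest of the 24 h arrays. By that probe set, an alternative chosen after seeing the data, the 769-P log2 change was -0.01 at 6 h, 0.46 at 12 h and 0.78 at 24 h, the last with a limma adjusted p of 8.13e-08. In replicate 1 the 2 other single-gene probe sets of FOXO3 read 7.67 and 6.53, under their DMSO arrays at 7.91 to 8.21 and 6.73 to 6.96. The other 4 probe sets shared with FOXO3B had 769-P log2 changes at 24 h of -0.04 to 0.27. In 2 of these replicate 1 was again under its DMSO arrays, at 7.15 against 7.50 to 7.77 and at 7.69 against 8.10 to 8.63. What sets this array apart at those probe sets was not tested.

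FOXO4 had the smallest log2 change at 24 h of the 7 tested genes, in both lines. FOXO4 (chromosome X, 71095851 to 71103532, plus strand) encodes a FOXO factor that shares targets with FOXO1 and FOXO3. Its log2 signals in Caki-1 were 7.91, 7.97 and 7.86 under DMSO, 8.03, 8.13 and 8.30 at 6 h, 8.47, 8.45 and 8.54 at 12 h, and 8.65, 8.65 and 8.71 at 24 h. The arrays climbed from group to group without overlap. The log2 rise was 0.24 ± 0.08 at 6 h (limma adjusted p 0.0404), 0.57 ± 0.08 at 12 h (3.35e-05) and 0.76 ± 0.08 at 24 h (1.03e-06). The 6 h call was lost when any 1 of 7 Caki-1 arrays was left out (the 3 DMSO arrays, and replicates 2 and 3 at 6 h and at 12 h), with adjusted p of 0.0518 to 0.192, and with the mean of its probe sets (0.04, adjusted p 0.724). That 6 h call was also lost with no filter (limma adjusted p 0.0618), quantile normalization (0.0565) and median centring (0.0681).

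In 769-P the FOXO4 log2 signals were 8.28, 8.17 and 8.20 under DMSO, 8.32, 8.22 and 8.23 at 6 h, 8.46, 8.24 and 8.37 at 12 h, and 8.40, 8.38 and 8.52 at 24 h. Only the 24 h arrays cleared the DMSO arrays. The log2 change was 0.04 ± 0.08 at 6 h and 0.14 ± 0.08 at 12 h (limma adjusted p 0.773 and 0.194), and the rise at 24 h was 0.22 ± 0.08 (0.0355). That call was lost without DMSO replicate 2, DMSO replicate 3 or 24 h replicate 3, with adjusted p of 0.0832 to 0.139. It was also lost with no filter (limma adjusted p 0.0536).

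**Figure D1:**
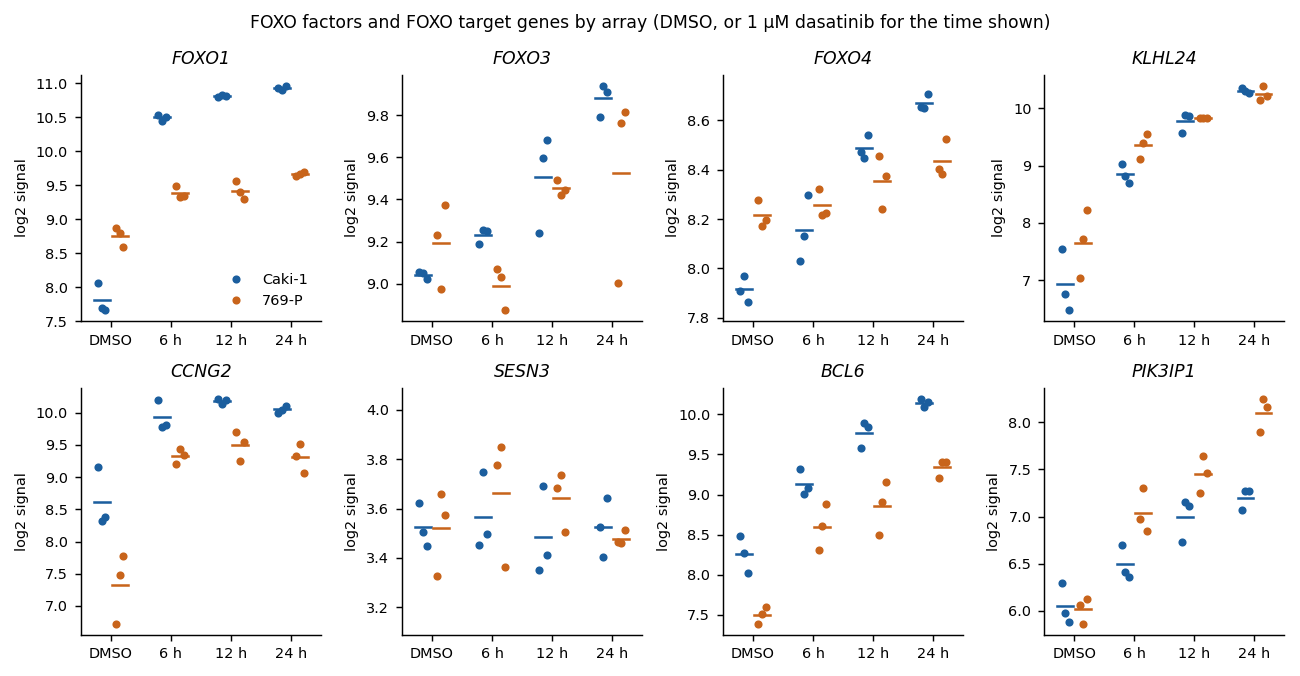
Log2 signal of each of the 8 genes on each of the 24 arrays (points), by treatment on the horizontal axis, with the mean of 3 arrays as a bar and the lines in separate colours. FOXO1 in Caki-1 goes from 7.66 to 8.06 under DMSO to 10.45 or more under dasatinib, KLHL24 climbs in both lines, and SESN3 stays between 3.33 and 3.85.

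KLHL24 rose steeply in both lines and rose further from 6 to 24 h in both, by 1.45 ± 0.19 in Caki-1 and 0.90 ± 0.20 in 769-P (limma adjusted p 1.66e-05 and 0.00184). KLHL24 (chromosome 3, 183635623 to 183684519, plus strand) encodes a substrate adaptor of a cullin ubiquitin ligase. In Caki-1 its log2 signals were 7.55, 6.76 and 6.48 under DMSO, 9.03, 8.83 and 8.70 at 6 h, 9.57, 9.88 and 9.87 at 12 h, and 10.35, 10.30 and 10.27 at 24 h. The groups did not overlap at any step, and the DMSO arrays were the most spread. The log2 rise was 1.93 ± 0.19 at 6 h, 2.85 ± 0.19 at 12 h and 3.38 ± 0.19 at 24 h, the last a 10.4-fold rise, with limma adjusted p of 4.95e-06, 3.25e-08 and 1.53e-09.

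In 769-P the KLHL24 log2 signals were 7.03, 7.72 and 8.22 under DMSO, 9.11, 9.40 and 9.55 at 6 h, 9.83, 9.83 and 9.82 at 12 h, and 10.15, 10.39 and 10.21 at 24 h. The DMSO arrays were again the most spread and the treated arrays stood clear of them. KLHL24 rose by 1.70 ± 0.20, 2.17 ± 0.20 and 2.59 ± 0.20 log2 units at the 3 times, with limma adjusted p of 1.04e-05, 3.34e-07 and 2.35e-08. At 24 h the levels of the lines overlapped, 10.27 to 10.35 in Caki-1 and 10.15 to 10.39 in 769-P.

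CCNG2 had risen by 6 h, and no later step passed the test in either line. CCNG2 (chromosome 4, 77157207 to 77170060, plus strand) encodes cyclin G2, an unconventional cyclin that rises in arrested cells. In Caki-1 its log2 signals were 9.16, 8.32 and 8.38 under DMSO, 10.20, 9.78 and 9.82 at 6 h, 10.21, 10.14 and 10.19 at 12 h, and 10.003, 10.04 and 10.11 at 24 h. Every treated array exceeded the DMSO arrays, among which replicate 1 was high. CCNG2 rose by 1.31 ± 0.17, 1.56 ± 0.17 and 1.43 ± 0.17 log2 units at 6, 12 and 24 h, with limma adjusted p of 4.64e-05, 2.63e-06 and 2.99e-06.

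In 769-P the CCNG2 log2 signals were 6.73, 7.48 and 7.78 under DMSO, 9.20, 9.44 and 9.35 at 6 h, 9.70, 9.26 and 9.55 at 12 h, and 9.33, 9.52 and 9.07 at 24 h. DMSO replicate 1 was low, and the treated groups overlapped one another. The log2 rise was 2.002 ± 0.20, 2.17 ± 0.20 and 1.98 ± 0.20, with limma adjusted p of 1.89e-06, 3.08e-07 and 4.65e-07. Between 24 and 6 h the log2 change was 0.12 ± 0.17 in Caki-1 and -0.02 ± 0.20 in 769-P, with adjusted p of 0.565 and 0.94 and 95% intervals of -0.24 to 0.48 and -0.45 to 0.40.

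BCL6 rose in both lines, with close values at 24 h. BCL6 (chromosome 3, 187721377 to 187745468, minus strand) encodes a zinc-finger transcriptional repressor known from germinal centre B cells. In Caki-1 its log2 signals were 8.48, 8.27 and 8.02 under DMSO, 9.32, 9.01 and 9.08 at 6 h, 9.58, 9.90 and 9.84 at 12 h, and 10.19, 10.10 and 10.15 at 24 h. The groups were separate at each step. The log2 rise was 0.88 ± 0.12, 1.51 ± 0.12 and 1.89 ± 0.12 at 6, 12 and 24 h, with limma adjusted p of 5.34e-05, 8.63e-08 and 2.94e-09.

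In 769-P the BCL6 log2 signals were 7.39, 7.50 and 7.59 under DMSO, 8.31, 8.61 and 8.88 at 6 h, 8.50, 8.91 and 9.16 at 12 h, and 9.21, 9.41 and 9.41 at 24 h. The 6 and 12 h arrays overlapped each other but not the DMSO arrays. BCL6 rose by 1.11 ± 0.15, 1.36 ± 0.15 and 1.85 ± 0.15 log2 units, with limma adjusted p of 4.67e-05, 2.58e-06 and 5.03e-08.

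By its brightest probe set PIK3IP1 rose in both lines, and more in 769-P at 24 h. Its other probe sets gave 24 h log2 changes of 0.02 to 0.40 in Caki-1 and -0.32 to 0.35 in 769-P. By the mean of all its probe sets, the difference between the lines at 24 h was -0.05 (limma adjusted p 0.705). PIK3IP1 (chromosome 22, 31281593 to 31292534, minus strand) encodes a membrane protein that binds the catalytic subunit of PI3K and inhibits it. In Caki-1 its log2 signals were 6.29, 5.98 and 5.88 under DMSO, 6.70, 6.42 and 6.36 at 6 h, 6.73, 7.16 and 7.11 at 12 h, and 7.07, 7.27 and 7.27 at 24 h. The lowest 6 h array stood just above the highest DMSO array. The log2 rise was 0.44 ± 0.14 at 6 h, 0.95 ± 0.14 at 12 h and 1.15 ± 0.14 at 24 h, with limma adjusted p of 0.03, 4.97e-05 and 4.01e-06. The 6 h call was lost without DMSO replicate 2, DMSO replicate 3 or 6 h replicate 1, with adjusted p of 0.101 to 0.132.

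In 769-P the PIK3IP1 log2 signals were 6.06, 5.87 and 6.13 under DMSO, 6.97, 7.31 and 6.85 at 6 h, 7.25, 7.65 and 7.46 at 12 h, and 7.89, 8.25 and 8.16 at 24 h. Every treated array exceeded every DMSO array, and the 24 h arrays were above the 12 h arrays. PIK3IP1 rose by 1.02 ± 0.14, 1.43 ± 0.14 and 2.08 ± 0.14 log2 units, with limma adjusted p of 3.78e-05, 5.11e-07 and 4.1e-09.

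SESN3 gave no signal that could be tested. SESN3 (chromosome 11, 95165513 to 95232475, minus strand) encodes sestrin 3, which restrains mTORC1. Its brighter probe set had a mean log2 signal of 3.55 over 24 arrays, under the level required in both lines, and lay between 3.33 and 3.85 on every array. The other probe set was dimmer still, at 3.14. These values say only that the array gave no usable reading of SESN3.

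In Caki-1, 6 of the 7 tested genes rose at 6 h against 12.3% of all tested genes, 7 of 7 rose at 12 h against 24.1%, and 7 of 7 rose at 24 h against 32.9%. In 769-P, 5 of 7 rose at 6 h against 16.4%, 5 of 7 at 12 h against 24.9%, and 6 of 7 at 24 h against 31.1%. None of the 7 fell in either line. The genes, and the lists below, were chosen with earlier results of these data known. These counts are therefore a description and no independent test of the set. Their median log2 change was 0.88, 1.51 and 1.43 in Caki-1 and 1.02, 1.36 and 1.85 in 769-P at 6, 12 and 24 h, where the median of all tested genes lay between 0.01 and 0.08. By the mean of all probe sets in place of the brightest, the PIK3IP1 log2 change at 6 h was 0.07 in Caki-1 and 0.18 in 769-P, with limma adjusted p of 0.515 and 0.0775.

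**Figure D2:**
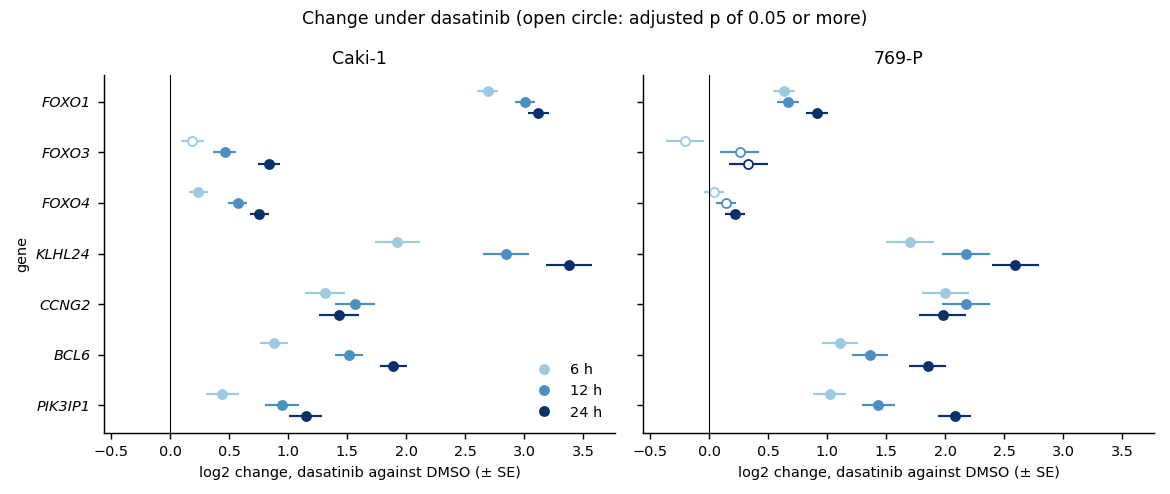
Log2 change against DMSO (points, bars ± SE, n = 3 against 3) for the 7 tested genes at 6, 12 and 24 h, with 1 panel for each line. FOXO1 stands at 2.69 to 3.12 in Caki-1 and 0.64 to 0.91 in 769-P, and the open circles mark values that did not pass the test.

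The times of drug were then compared with each other, which leaves the DMSO arrays out of the difference. These steps still have no control at each time, so time on the drug and time in culture cannot be told apart in them. From 6 to 12 h in Caki-1, 6 of 7 genes rose against 12.5% of all genes, with KLHL24 up by 0.92 ± 0.19 (limma adjusted p 0.00291), BCL6 by 0.64 ± 0.12 (0.00106) and FOXO1 by 0.31 ± 0.09 (0.0145). The count was 3 without 6 h replicate 2 or without 12 h replicate 2, and 3 by the mean of all probe sets. The FOXO3 call (0.27, limma adjusted p 0.0457) was lost without any 1 of 10 of the 12 arrays, with adjusted p of 0.0527 to 0.222. It was also lost with no filter (0.0579), no intensity trend (0.0604) and all 24 arrays in the fit (0.173). From 12 to 24 h in Caki-1, 2 of 7 rose against 10.9%, FOXO3 by 0.38 ± 0.10 (0.00934) and BCL6 by 0.38 ± 0.12 (0.0274), and KLHL24 gave 0.53 ± 0.19 (0.0572). That count was 1 without 12 h replicate 1 or any 1 of the 24 h replicates, and 0 with all 24 arrays in the fit. From 6 to 24 h, 6 of 7 rose against 28.1%, all but CCNG2.

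The same steps were compared in 769-P. From 6 to 12 h, 0 of 7 genes passed limma's test against 8.91% of all genes that rose, and 3 of 7 had an unadjusted p under 0.05. With the replicate number as a block, 3 passed, FOXO3 (adjusted p 0.0386), KLHL24 (0.0354) and PIK3IP1 (0.0252). Without the block, 2 passed when 24 h replicate 1 was left out, and 1 passed without DMSO replicate 1, DMSO replicate 3, 6 h replicate 2, 12 h replicate 1 or 24 h replicate 3. From 12 to 24 h, 2 of 7 rose against 17.0%, PIK3IP1 by 0.65 ± 0.14 (0.00257) and BCL6 by 0.49 ± 0.15 (0.0277). With the block 4 passed, FOXO1 (0.0244) and KLHL24 (0.0486) joining them. The count was 4 without DMSO replicate 1 or DMSO replicate 3, and 1 without 12 h replicate 2, 24 h replicate 2 or 24 h replicate 3. From 6 to 24 h, 5 of 7 rose against 25.8%, all but FOXO4 and CCNG2, and 3 did so without 6 h replicate 3, 24 h replicate 2 or 24 h replicate 3. For the counts by unadjusted p, with the block or with an array left out, the share of all genes is not given here.

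The difference between the lines was tested directly, as the change in Caki-1 less that in 769-P. FOXO1 differed at each time, by 2.05 ± 0.13 log2 units at 6 h, 2.34 ± 0.13 at 12 h and 2.20 ± 0.13 at 24 h, with limma adjusted p of 1.67e-10, 9.27e-12 and 7.84e-12. FOXO4 rose more in Caki-1 by 0.43 ± 0.11 at 12 h (0.00706) and 0.53 ± 0.11 at 24 h (0.000551), and PIK3IP1 rose less in Caki-1 by -0.93 ± 0.21 at 24 h (0.000988). By the mean over all its probe sets these 3 values were 0.09, 0.17 and -0.05, with adjusted p of 0.587, 0.163 and 0.705. For KLHL24 the difference at 24 h was 0.79 ± 0.31 with an adjusted p of 0.0489, and it was lost when any 1 of 18 of the 24 arrays was left out, with adjusted p of 0.051 to 0.175. It was kept without replicate 1 of the Caki-1 DMSO, 6 h and 12 h groups, replicate 1 of the 769-P DMSO and 6 h groups, or replicate 2 of the 769-P 24 h group. The call was also lost with no filter (0.0548), median centring (0.0625), no intensity trend (0.0662), only the arrays of the groups compared (0.103) and the replicate number as a block (0.0528).

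The count of genes that differed was 1 of 7 at 6 h against 8.09% of all genes, 2 of 7 at 12 h against 18.9%, and 4 of 7 at 24 h against 36.0%. Without Caki-1 6 h replicate 1 or without 769-P DMSO replicate 3 the 6 h count was 2. BCL6 gave -0.23, 0.15 and 0.04 at the 3 times, and its 95% interval at 24 h was -0.39 to 0.47. CCNG2 gave -0.69, -0.61 and -0.55, with limma adjusted p of 0.176, 0.153 and 0.145 and a 24 h interval of -1.14 to 0.05. FOXO3 gave 0.39, 0.20 and 0.51, the last with an adjusted p of 0.0557, and 0.19 (0.227) by the probe set shared with FOXO3B. Without 769-P DMSO replicate 3, CCNG2 passed the test at each time, with adjusted p of 0.0424, 0.0387 and 0.0349. FOXO3 passed at 24 h, with adjusted p of 0.015 to 0.0406, without Caki-1 12 h replicate 1, 769-P DMSO replicate 2, or 769-P 24 h replicate 2 or 3.

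**Figure D3:**
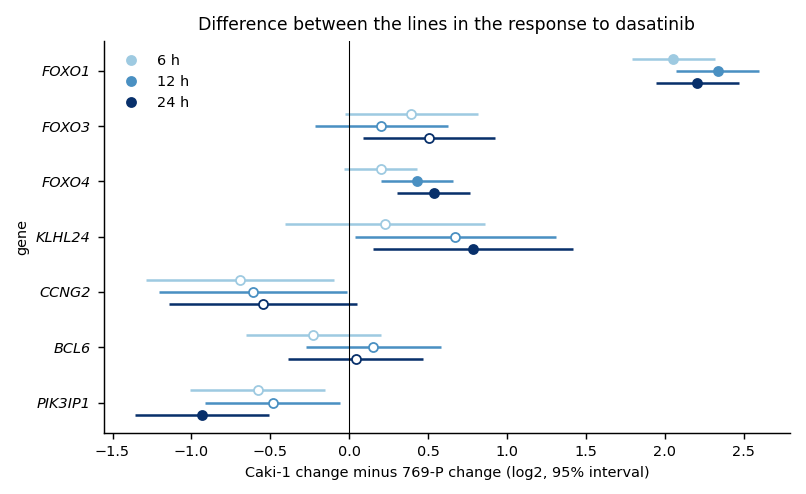
Difference between the lines in log2 change (Caki-1 minus 769-P, points with 95% intervals) for the 7 tested genes at 6, 12 and 24 h. FOXO1 lies at 2.05 to 2.34, PIK3IP1 lies below 0 and reaches -0.93 at 24 h, and open circles did not pass the test.

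The lines also started from different levels. Under DMSO 5 of 7 genes differed between Caki-1 and 769-P, against 58.7% of all tested genes, so this count is near the background. FOXO1 was lower in Caki-1 by -0.94 ± 0.09 log2 units (limma adjusted p 1.93e-09), FOXO4 by -0.30 ± 0.08 (0.00195) and KLHL24 by -0.73 ± 0.22 (0.00577). CCNG2 was higher by 1.29 ± 0.20 (6.09e-06) and BCL6 by 0.76 ± 0.15 (7.35e-05), while FOXO3 and PIK3IP1 gave -0.15 ± 0.14 (0.39) and 0.03 ± 0.15 (0.869). The KLHL24 call was lost without Caki-1 DMSO replicate 3 or 769-P DMSO replicate 3, with adjusted p of 0.0643 and 0.0761, and the FOXO4 call by the mean of all probe sets (-0.08, 0.326). These levels and the line differences in response use the same DMSO arrays. At 24 h FOXO1 stood at 10.90 to 10.96 in Caki-1 and at 9.63 to 9.69 in 769-P, the reverse of the order under DMSO.

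The 37 single-gene probe sets of the 8 genes did not all report the same size of change. KLHL24 was higher in each of its 3 probe sets, by 1.997 to 3.38 in Caki-1 and 1.53 to 2.59 in 769-P at 24 h, and BCL6 in each of 5, by 0.68 to 1.89 and 0.67 to 1.95, with no overlap between treated and DMSO arrays. The second brightest FOXO1 probe set gave 2.99 in Caki-1 and 0.66 in 769-P, close to the brightest. The 2 dim ones gave 1.08 and 0.05 in Caki-1, and 0.18 and 0.04 in 769-P. The 5 CCNG2 probe sets gave 0.37 to 1.59 in Caki-1 and -0.02 to 1.98 in 769-P. Those of CCNG2 with mean log2 signals of 5.42 and 5.07 gave -0.02 and 0.27 in 769-P. The 3 FOXO3 probe sets gave 0.50 to 0.84 in Caki-1 and 0.08 to 0.33 in 769-P, where each overlapped the DMSO arrays. For PIK3IP1, the brightest of 8 probe sets gave the rises above. In 5 of 8 in each line the 24 h arrays lay above the DMSO arrays without overlap, and the other 7 probe sets gave 0.02 to 0.40 in Caki-1 and -0.32 to 0.35 in 769-P. Its brightest probe set had a mean log2 signal of 6.92 over the 24 arrays and the next 6.598. Under DMSO that order was reversed, at 6.05 against 6.44 in Caki-1 and 6.02 against 6.47 in 769-P. The treated arrays thus made it the brightest, so its choice was not independent of its rise. FOXO4 was higher without overlap in 5 of 7 probe sets in Caki-1 and in 1 of 7 in 769-P. The share of all probe sets without overlap is not given here, so these counts have no background beside them.

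**Figure D4:**
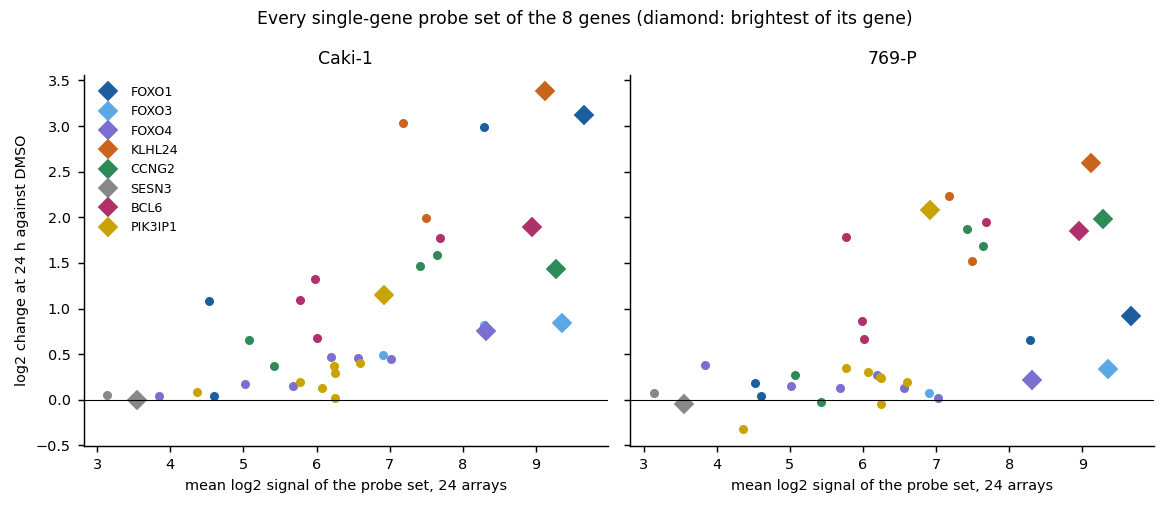
Log2 change at 24 h against DMSO of every single-gene probe set of the 8 genes (vertical axis) against its mean log2 signal over 24 arrays (horizontal axis), with diamonds for the brightest of each gene. The PIK3IP1 diamond lies at 1.15 in Caki-1 and 2.08 in 769-P, above the other 7 probe sets of that gene, while the 3 KLHL24 probe sets all lie above 1.5.

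Across arrays, after subtraction of each line's DMSO mean, KLHL24 and BCL6 were the most alike pair of the 7 genes, with Pearson's r of 0.953 over 24 arrays, 0.989 over the 12 of Caki-1 and 0.955 over the 12 of 769-P. FOXO1 and PIK3IP1 were the least alike, at 0.20 over both lines against 0.85 in Caki-1 and 0.90 in 769-P alone. These arrays share the treatment times, so any genes that rise with time correlate. Among the genes tested in both lines, the closest patterns to FOXO1 were those of PDK4 (0.973) and SPHK1 (0.971). The closest to KLHL24 were those of KLHDC2 (0.985) and PNRC1 (0.980). BCL6 was closest to PCMTD1 (0.982) and VCAN (0.9746), CCNG2 to DDIT4 (0.953) and ANKRA2 (0.950), and PIK3IP1 to TBL1X (0.969) and DNAAF9 (0.965). FOXO4 was closest to MGST3 (0.974) and CYBC1 (0.962), and FOXO3 to MIDN (0.922) and NPEPPS (0.894).

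Of 28 other FOXO target genes tested in Caki-1, 16 rose and 4 fell at 6 h, 19 and 5 at 12 h, and 21 and 4 at 24 h, with median log2 changes of 0.34, 0.76 and 0.70. Of 29 tested in 769-P, 15 rose and 4 fell at 6 h, 20 and 2 at 12 h, and 20 and 3 at 24 h, with medians of 0.29, 0.60 and 0.73. The shares of all tested genes that rose at these times were 12.3%, 24.1% and 32.9% in Caki-1 and 16.4%, 24.9% and 31.1% in 769-P. The shares that fell were 14.0%, 24.4% and 29.9% in Caki-1 and 14.5%, 22.6% and 24.6% in 769-P. The genes that follow were named for the largest changes at 24 h, and all of them rose. PDK4, which holds back pyruvate entry to the citric acid cycle, rose by 4.28 ± 0.28, 4.84 ± 0.28 and 5.24 ± 0.28 in Caki-1 and by 1.37 ± 0.30, 1.18 ± 0.30 and 1.18 ± 0.30 in 769-P. CDKN1C, the CDK inhibitor p57, rose by 3.61 ± 0.24 and 2.60 ± 0.29 at 24 h in the lines, and GABARAPL1, an autophagy protein, by 2.52 ± 0.11 and 3.38 ± 0.17. TXNIP, which limits glucose uptake, rose by 2.04 ± 0.16 and 3.13 ± 0.28, and the receptor ERBB3 by 2.27 ± 0.20 and 4.14 ± 0.35. Limma adjusted p for these 24 h rises lay at 0.0035 for PDK4 in 769-P and under that for the rest.

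Of 23 tested genes of the PI3K and AKT pathway, 8 rose and 9 fell in Caki-1 at 24 h, and 7 rose and 11 fell in 769-P. Of all tested genes, 32.9% rose and 29.9% fell in Caki-1 at 24 h, and 31.1% and 24.6% in 769-P, so the counts of rising genes here are near the background. IRS1, the insulin receptor substrate upstream of PI3K, fell, with log2 changes of -1.05 ± 0.10 in Caki-1 and -2.11 ± 0.18 in 769-P, and the phosphatase gene INPP4B fell too, at -1.54 ± 0.13 and -0.88 ± 0.29. IGF1R, a receptor that feeds PI3K, rose by 0.85 ± 0.11 and 1.10 ± 0.14, and TSC2, which restrains mTORC1, by 1.05 ± 0.11 and 1.02 ± 0.12. In 769-P SGK1, an AKT-related kinase, fell by 1.60 ± 0.17 and PIK3R3, a regulatory subunit of PI3K, rose by 1.05 ± 0.09, where Caki-1 gave 0.33 ± 0.15 and -0.46 ± 0.20 (limma adjusted p 0.062 and 0.059).

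Of 21 genes for proteins that bind or modify FOXO factors, 5 rose and 14 fell in Caki-1 at 24 h, and 3 rose and 14 fell in 769-P, with median log2 changes of -0.47 and -0.39, where 29.9% and 24.6% of all tested genes fell and 32.9% and 31.1% rose. SKP2, a ubiquitin ligase subunit that targets FOXO1, fell in Caki-1 and 769-P (-2.37 ± 0.16 and -1.68 ± 0.11), as did CDK2, a kinase that phosphorylates FOXO1 (-1.55 ± 0.09 and -1.63 ± 0.10). FOXM1, a forkhead factor of proliferating cells, fell to log2 changes of -2.12 ± 0.15 and -2.84 ± 0.12 at 24 h, after a 6 h change of 0.04 ± 0.15 and 0.10 ± 0.12. XPO1, the nuclear export receptor, also fell (-1.18 ± 0.10 and -0.78 ± 0.08). SFN, the 14-3-3 sigma gene, fell by 2.05 ± 0.19 in 769-P and gave 0.09 ± 0.17 in Caki-1.

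Of 18 genes of the DREAM complex and quiescence, 5 rose and 9 fell in Caki-1 at 24 h, and 9 rose and 7 fell in 769-P, beside 32.9% and 29.9% of all tested genes in Caki-1 and 31.1% and 24.6% in 769-P. HBP1, a repressor tied to cell cycle exit, rose by 2.04 ± 0.16 and 1.45 ± 0.07, and YPEL3, tied to growth arrest, by 1.98 ± 0.12 and 1.55 ± 0.12. MYBL2, a proliferation factor that partners with LIN9, fell (-1.46 ± 0.14 and -1.83 ± 0.11), as did LIN9 (-1.90 ± 0.13 and -1.85 ± 0.10). HES1, a repressor that guards the reversibility of quiescence, rose by 1.46 ± 0.15 and 0.89 ± 0.11. Limma adjusted p for these 5 genes at 24 h were 5.9e-06 or less.

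Among 7 tested relatives of the sestrin, cyclin G and BCL6 genes, 5 rose and 1 fell in Caki-1 and 4 rose and 1 fell in 769-P at 24 h, where 32.9% and 31.1% of all tested genes rose and 29.9% and 24.6% fell. The sestrin genes SESN1 and SESN2, which gave signals where SESN3 did not, rose by 0.71 ± 0.07 and 0.94 ± 0.08 in Caki-1 and by 0.40 ± 0.09 and 1.12 ± 0.09 in 769-P. CCNG1, the relative of CCNG2, rose by 0.47 ± 0.07 in Caki-1 and gave -0.03 ± 0.09 in 769-P (limma adjusted p 0.80), against 1.43 and 1.98 for CCNG2 itself. CCNI rose by 0.71 ± 0.06 and 0.56 ± 0.07, and KLHL15 fell (-0.27 ± 0.09 and -0.48 ± 0.11).

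**Figure D5:**
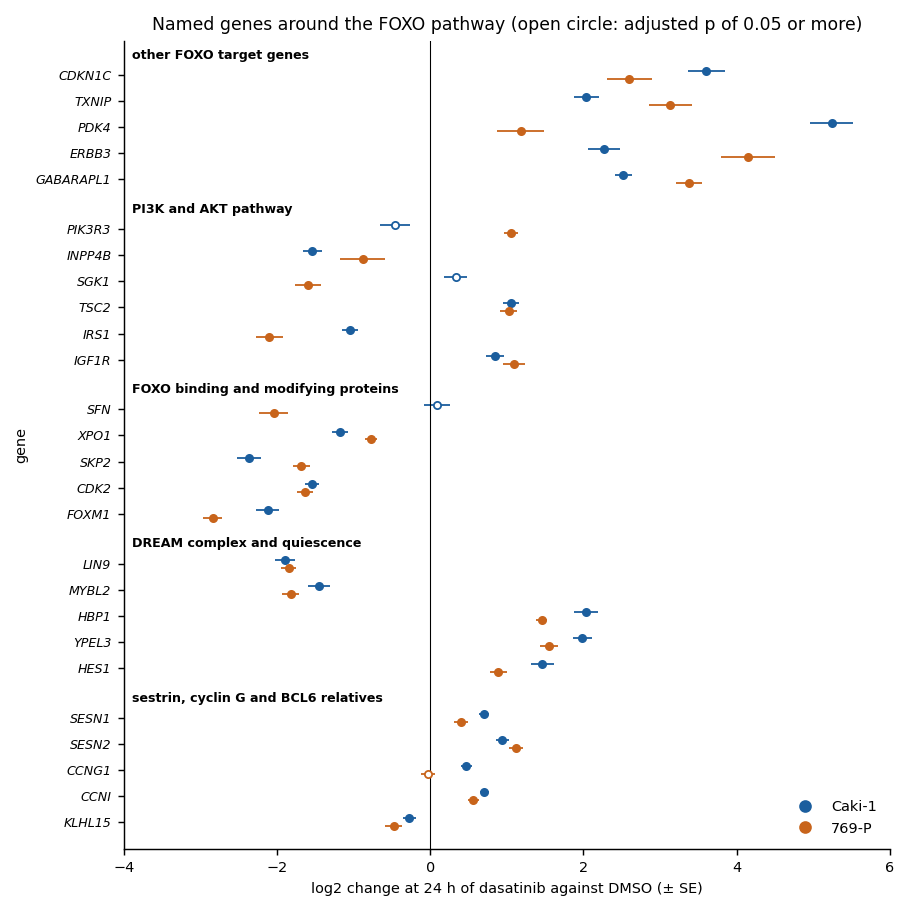
Log2 change at 24 h against DMSO (points, bars ± SE, n = 3 against 3) of the genes named from 5 lists around the FOXO pathway, in both lines. PDK4 lies at 5.24 in Caki-1 and 1.18 in 769-P, SKP2, CDK2 and FOXM1 lie below 0 in both, and open circles did not pass the test.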

How the data were processed

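Total RNA of Caki-1 and 769-P cells was measured on 24 Affymetrix arrays. The authors deposited log2 signals, made with MAS5 per the submitters' processing notes (version and settings not given in the sources used here). These PrimeView arrays carry no mismatch probes, and array medians lay within 6.01 to 6.08 and upper quartiles within 8.10 to 8.28. Which background correction and scaling lie behind the values is unknown. Of 49395 probe sets, 102 were controls and 44988 name 1 gene. The 8 genes and the gene lists were chosen with earlier results of these data known. Genes were read from their brightest single-gene probe set and tested with limma 3.58.1 (R 4.3.3), group means, intensity trend and Benjamini-Hochberg adjustment over all genes tested, at an adjusted p under 0.05. Each line was fitted on its 12 arrays, and differences between lines on all 24. All 8 genes are named. From each list, up to 4 called genes with the largest change at 24 h in each line are named, and 2 most alike genes for each of the 7 tested. Alternatives were another probe set rule, filter, scaling, variance model, sample set, a replicate block and leaving out each array. Same-numbered arrays deviated together (every pair's correlation over 0.1) in 5 of 6 pairs of groups in 769-P and 1 of 6 in Caki-1. Blocked values stand beside the calls they change where the numbers pair the arrays, and otherwise mostly under the dependence on processing. Scan dates were not used here.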

Additional observations from a re-analysis of the deposited data

Results flagged for a closer look

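The response differed between the lines, by the interaction test in limma, for 4 of the 7 tested genes at 1 or more times. All 4 were called at 24 h, where 36.0% of all tested genes were. The shares of all tested genes at 6 and 12 h were 8.09% and 18.9%. FOXO1 rose more in Caki-1 by 2.05 log2 units at 6 h, 2.34 at 12 h and 2.20 at 24 h, and treated arrays exceeded DMSO arrays in 9 of 9 cases in each line. FOXO4 rose more in Caki-1 by 0.43 at 12 h and 0.53 at 24 h. KLHL24 rose more in Caki-1 by 0.79 at 24 h, a call lost under 5 other settings and without any 1 of 18 of the 24 arrays. PIK3IP1 rose less in Caki-1 by -0.93 at 24 h by its brightest probe set, and the mean over its probe sets gave -0.05 (limma adjusted p 0.705). No explanation was tested.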

How the results depend on the processing

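Of 906 values under another setting, 850 kept their direction and their side of the threshold, and of 1680 with 1 array left out, 1576 did. With the replicate number as a block, the genes called were 3 in 769-P from 6 to 12 h and 4 from 12 to 24 h. It also moved FOXO3 (adjusted p 0.0425) and KLHL24 (0.0528) across the threshold in the line difference at 24 h, and KLHL24 (0.0308) in Caki-1 from 12 to 24 h, and changed no other call. By the mean over its probe sets in place of the brightest, the counts were 3 in Caki-1 from 6 to 12 h, 1 in 769-P from 12 to 24 h, 3 in 769-P from 6 to 24 h, and 1 and 2 in the line differences at 12 and 24 h. At 6 h against DMSO the calls of FOXO4 in Caki-1 and of PIK3IP1 in both lines were also lost. Under that setting the direction turned for CCNG2 in Caki-1 from 12 to 24 h (0.066), FOXO3 in 769-P from 12 to 24 h (-0.012), FOXO4 and BCL6 in the line differences at 6 and 24 h (-0.060 and -0.070), and PIK3IP1 under DMSO (-0.089). None of these 5 was called. In 769-P from 6 to 12 h the count was 1 with the 60th percentile filter, with quantile normalization and with FOXO3 read from the probe set shared with FOXO3B, and 2 with all 24 arrays in the fit. In Caki-1 from 12 to 24 h that last setting gave 0. For the counts under another setting, here and above, the share of all genes is not given, so they have no background beside them. The cause was not tested.

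With 1 array left out, the genes called ranged from 3 to 6 in Caki-1 from 6 to 12 h, 1 to 3 from 12 to 24 h, 0 to 2 in 769-P from 6 to 12 h, 1 to 4 from 12 to 24 h, 3 to 5 from 6 to 24 h, and 1 to 2 in the line difference at 6 h. For the counts with an array left out, here and above, the share of all genes is not given either. The list of ranges leaves out counts that moved less in proportion, such as Caki-1 at 6 h against DMSO. There FOXO4 and PIK3IP1 were both lost without DMSO replicate 2 or 3, and FOXO3 was gained without 12 h replicate 1. Values that changed sign, none of them called with all arrays in, ranged from -0.038 to 0.091 for FOXO1 in 769-P from 6 to 12 h, -0.069 to 0.34 for FOXO3 from 12 to 24 h and -0.13 to 0.094 for CCNG2 from 6 to 24 h. They ranged from -0.088 to 0.12 for PIK3IP1 under DMSO, -0.054 to 0.54 for KLHL24 in the line difference at 6 h, and -0.024 to 0.30 and -0.077 to 0.15 for BCL6 at 12 and 24 h. The low signal of SESN3 limits what can be said of it.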
